A study of Mus musculus with 8 samples.

Results

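The genes described here handle cholesterol and lipoprotein lipid in macrophages, and 10 were named: the sterol receptors *Nr1h3* and *Nr1h2*, the exporters *Abca1* and *Abcg1*, the ligase gene *Mylip*, the oxysterol enzyme gene *Ch25h*, the lipoprotein genes *Apoe* and *Lpl*, the droplet coat gene *Plin2* and the esterifying enzyme gene *Soat1*. A gene was measured where the array held a probe set annotated to it alone, and the brightest such probe set by its mean over the 8 arrays was used, with any others as a check. Of the 10 genes, 8 had such probe sets, 12 in all, among 18183 genes measured in this way. *Nr1h2* and *Soat1* were not analysed here. The rule itself used no measured difference, but the genes were chosen with earlier results of these data known. Their counts therefore cannot be read as those of an unselected set.

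RNA came from mouse bone marrow-derived macrophages (BMDM), which had been grown for 7 days from frozen C57Bl/6 marrow in medium with 15% supernatant of L929 cells, and was measured on Affymetrix mouse arrays. WT(LPS) and miR-155-/-(LPS) cells received lipopolysaccharide (LPS), the endotoxin of Gram-negative bacteria, at 100 ng/ml for 24 h. The WT(LPS + IL-10) cells and the miR-155-/-(LPS + IL-10) cells received the anti-inflammatory cytokine IL-10 at 20 ng/ml, 5 min before the same LPS. The 4 groups held 2 arrays each, 1 from each of 2 donor animals per genotype, so that every donor gave 1 LPS and 1 LPS + IL-10 array. All cells had LPS, so no level in resting cells stands beside these values. The WT donors were labelled female and the miR-155-/- donors male, and the effects of genotype and sex therefore cannot be told apart. The sources do not say how the knockout was made.

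Macrophages take up cholesterol from lipoproteins and dying cells, store the surplus as esters in lipid droplets and return it to lipoproteins through membrane transporters. Oxysterols, which are oxidised forms of cholesterol, bind the liver X receptors (LXR), and these nuclear receptors raise the transcription of exporters, of apolipoprotein E and of a ligase that removes the LDL receptor. Both LPS and interferons are known to act on several of these genes.

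The genotype compared removes miR-155, a microRNA that LPS induces in macrophages. Its mature 5p strand is shown because it defines the knockout. It lies on the plus strand at chr16:84714143-84714165 (RefSeq, GRCm38.p6), and the capitals mark the seed, bases 2 to 8 from the 5′ end.
mmu-miR-155-5p: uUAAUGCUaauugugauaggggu

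The second sequence shows where letters that match the LXR recognition element stand before *Abca1*, the textbook LXR target in the set. Promoter windows of RefSeq (GRCm38.p6) were found for 8 of the 10 named genes, the exceptions being *Abcg1* and *Lpl*. The windows were searched for 4 motifs on both strands from 250 bases before to 50 bases after each start. A relaxed LXR element of the DR4 type, NGGTNA and NGGTCA separated by 4 bases, was present in 68 of all 32817 windows (0.2%), and among these genes only in that of *Abca1*. The nuclear receptor motif AGGTCA, which can overlap the end of that element, was present in 16.3% of all windows and here only before *Plin2*. The interferon element core, GAAA repeated after 2 bases (3.4% of windows), and the STAT element TTCNNNGAA (8.3%), were in none of the windows of these genes. Such a match is a description of letters and was not tested as a binding site. The 250 bases before the *Abca1* start, on the minus strand at chr4:53159896-53160145, are printed 5′ to 3′, and the capitals mark the DR4 match, whose first base lies at position -67 from the start and which reads on the opposite strand.
Abca1 promoter: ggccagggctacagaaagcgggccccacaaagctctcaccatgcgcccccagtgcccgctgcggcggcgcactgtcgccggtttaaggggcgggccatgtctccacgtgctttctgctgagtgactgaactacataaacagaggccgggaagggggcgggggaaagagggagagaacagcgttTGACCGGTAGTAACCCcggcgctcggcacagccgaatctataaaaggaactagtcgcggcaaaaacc

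All values below are the log2 RMA values that the authors deposited, and a difference of 1 is a 2-fold difference. Levels are compared within a probe set only. Differences were tested with limma over all 45014 probe sets, with the donor as a random block. A gene is said to have passed the test at a Benjamini-Hochberg adjusted p under 0.05. The p-values rest on a spread that was pooled over the 4 groups for each probe set and moderated by that of all probe sets. With 2 donors per genotype, the number of arrays limits the precision.

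On the brightest probe sets, the largest differences were those of *Ch25h*, which was 2.66-fold higher in miR-155-/-(LPS) than in the WT(LPS) group, and of *Nr1h3*, which was 2.43-fold lower with IL-10 in miR-155-/- cells. Neither of them, and none of the 8 measured genes, passed the test in any of the comparisons. In WT BMDM with IL-10 against LPS alone the count was 0 of 8, where 0.0311% of all probe sets passed. At an unadjusted p under 0.05, limma gave 4 of the 8 (1 higher, 3 lower), against 9.27% of all probe sets. In miR-155-/-(LPS) against WT(LPS), 0 of 8 passed (1.46% of all probe sets) and 5 of the 8 had an unadjusted p under 0.05 (3 higher, 2 lower; 13.8%). In miR-155-/- BMDM with IL-10 against LPS alone, 0 of 8 passed (2.68%) and 2 had an unadjusted p under 0.05, both lower (17.3%). In miR-155-/-(LPS + IL-10) against WT(LPS + IL-10), 0 of 8 passed (0.0711%) and 2 had an unadjusted p under 0.05 (1 higher, 1 lower; 8.94%). For the interaction, which is the IL-10 effect in miR-155-/- minus that in WT cells, 0 of 8 passed (0.0333%) and 0 of 8 had an unadjusted p under 0.05 (10.4%). The median log2 fold changes of the 8 genes were -0.32, 0.12, -0.06 and 0.21 in the 4 group comparisons in this order, and those of all genes lay between -0.0033 and 0.03. Over the probe sets with a mean of at least 6, as all 8 genes have, the shares at an unadjusted p under 0.05 were higher, at 10.8%, 22.1%, 27.4% and 11.5% in the same order and 12.5% for the interaction. Each pair of comparisons that starts from the same group shares its arrays. Groups of 2 arrays that do not overlap were common, at 32.8%, 46.5%, 47.9% and 38.9% of all probe sets in the same order. Over those with a mean of at least 6 the shares were 37.6%, 61.6%, 65.1% and 46.6%. An absence of overlap therefore carries little weight by itself. Where all WT arrays are said below to lie apart from all miR-155-/- arrays, the share of all probe sets that do so was not counted. Nor was it counted for all arrays with IL-10 lying apart from those without. The share in which every donor differs in the same direction with IL-10 was not counted either.

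**Figure D1:**
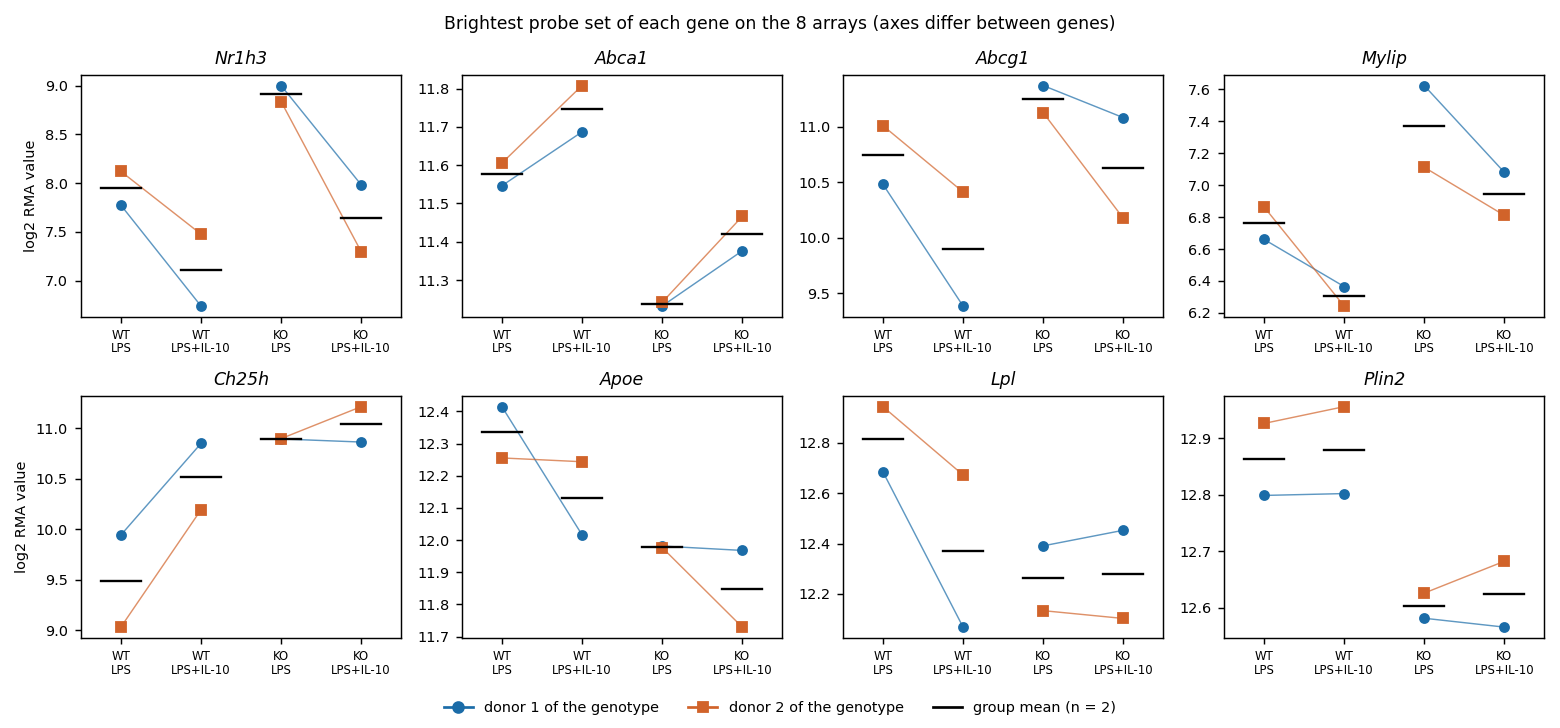
Log2 RMA values (y axis, different for each panel) of the brightest probe set of the 8 measured genes in the 4 groups (x axis; KO is miR-155-/-). Points are single arrays, thin lines join the arrays of a donor, and bars are means of 2. In *Nr1h3*, *Abcg1*, *Mylip* and *Apoe* every donor's line runs down from LPS to LPS + IL-10, and in *Abca1* every line runs up.

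*Nr1h3* encodes LXR alpha, the oxysterol-activated receptor of the macrophage. Its log2 values were 7.77 and 8.12 on the WT(LPS) arrays, 6.74 and 7.48 on the WT(LPS + IL-10) arrays, 9.0 and 8.84 on the miR-155-/-(LPS) arrays and 7.98 and 7.30 on the miR-155-/-(LPS + IL-10) arrays (donor 1, then donor 2). Both miR-155-/-(LPS) arrays were above the other 6, and both WT(LPS + IL-10) arrays stood below WT(LPS). The miR-155-/-(LPS + IL-10) arrays overlapped with both WT groups. By group mean the order was miR-155-/-(LPS), WT(LPS), miR-155-/-(LPS + IL-10) and WT(LPS + IL-10), of which the neighbours WT(LPS) and miR-155-/-(LPS + IL-10), and the latter and WT(LPS + IL-10), overlapped.

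With IL-10, *Nr1h3* was lower in all 4 donors, with differences of -1.04 and -0.64 in WT and -1.02 and -1.54 in miR-155-/- cells. In miR-155-/- cells the mean difference was -1.28 (SE 0.26, 95% interval -1.89 to -0.67, n = 2 donors), a level 2.43-fold lower (limma, adjusted p = 0.0541, just short of the threshold). The call depended on the fit. With each donor as a fixed replicate block, which uses the pairs alone, the adjusted p was 0.0183, and leaving out 1 array at a time gave differences of -1.60 to -0.96 with adjusted p between 0.0593 and 0.263. In WT cells the difference was -0.84 (SE 0.26, limma, adjusted p = 0.418). The 2 differences were not shown to be unequal: miR-155-/- minus WT was -0.44 (95% interval -1.30 to 0.42).

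Between genotypes, *Nr1h3* was 0.97 higher in the miR-155-/-(LPS) group than in WT(LPS) (SE 0.30, 95% interval 0.27 to 1.67, limma, adjusted p = 0.202). Under LPS + IL-10 the difference was 0.53 (95% interval -0.17 to 1.23, limma, adjusted p = 0.654). It was 0.20 to 0.87 with 1 array left out and 0.16 without both arrays of WT donor 1.

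*Abca1* encodes the transporter that hands cholesterol to lipid-free apolipoprotein A-I. On its brightest probe set the values were 11.55 and 11.61 on the WT(LPS) arrays, 11.69 and 11.81 on the WT(LPS + IL-10) arrays, 11.23 and 11.24 on the miR-155-/-(LPS) arrays and 11.38 and 11.47 on the miR-155-/-(LPS + IL-10) arrays. No 2 groups overlapped, both WT groups lay above both miR-155-/- groups, and the array with IL-10 was the higher of each donor's pair. The sizes were small: 0.17 with IL-10 in WT (95% interval -0.08 to 0.42, limma, adjusted p = 0.647) and 0.18 in miR-155-/- cells (limma, adjusted p = 0.446). Against WT the miR-155-/- cells were at -0.34 under LPS (limma, adjusted p = 0.282) and -0.33 under LPS + IL-10 (limma, adjusted p = 0.511). The IL-10 differences of the genotypes were 0.01 apart (95% interval -0.34 to 0.37).

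The other 2 *Abca1* probe sets gave the same signs with larger sizes. The one with a mean of 7.48 differed by 0.30 and 0.34 with IL-10 in WT and miR-155-/- cells and by -0.52 and -0.48 between genotypes under LPS and LPS + IL-10. The dimmest, with a mean of 5.57, differed by 0.48, 0.59, -0.65 and -0.54 in the same order. Neither passed the test, the lowest adjusted p of limma among them being 0.152.

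*Abcg1* encodes the transporter that moves cholesterol to mature high-density lipoprotein. Its values were 10.48 and 11.01 on the WT(LPS) arrays, 9.39 and 10.41 on the WT(LPS + IL-10) arrays, 11.37 and 11.13 on the miR-155-/-(LPS) arrays and 11.08 and 10.18 on the miR-155-/-(LPS + IL-10) arrays. WT donor 1 was the lowest of the 4 donors, and the genotypes overlapped under LPS + IL-10. All 4 donors were lower with IL-10, with differences of -1.10 and -0.60 in WT and of -0.29 and -0.95 in miR-155-/- cells.

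The *Abcg1* difference with IL-10 was -0.85 in WT (SE 0.34, limma, adjusted p = 0.517) and -0.62 in miR-155-/- cells (95% interval -1.42 to 0.18, limma, adjusted p = 0.418). With 1 array left out these ran from -1.31 to -0.38 and from -1.04 to -0.20, the smallest in size without WT(LPS + IL-10) replicate 1 and without miR-155-/-(LPS + IL-10) replicate 2. Between genotypes it was 0.50 under LPS (95% interval -0.42 to 1.42) and 0.73 under LPS + IL-10 (95% interval -0.19 to 1.65). Both rested largely on WT donor 1: without its arrays they were 0.24 and 0.22. The latter was 0.27 to 1.19 with 1 array left out. The other *Abcg1* probe set gave -0.99, 0.49, -0.45 and 1.03 in WT with IL-10, in miR-155-/- against WT under LPS, in miR-155-/- with IL-10, and in miR-155-/- against WT under LPS + IL-10. On these arrays the mean values of the exporters differed in opposite directions on every probe set. *Abca1* was higher with IL-10 and lower in the knockout, and *Abcg1* the reverse. For the other *Abcg1* probe set, though, the genotypes overlapped under LPS, at 5.02 and 6.37 in WT and 6.28 and 6.09 in miR-155-/- cells. WT donor 2 was above both miR-155-/- arrays, so the higher knockout mean there rested on WT donor 1. No difference of either gene passed the test.

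**Figure D2:**
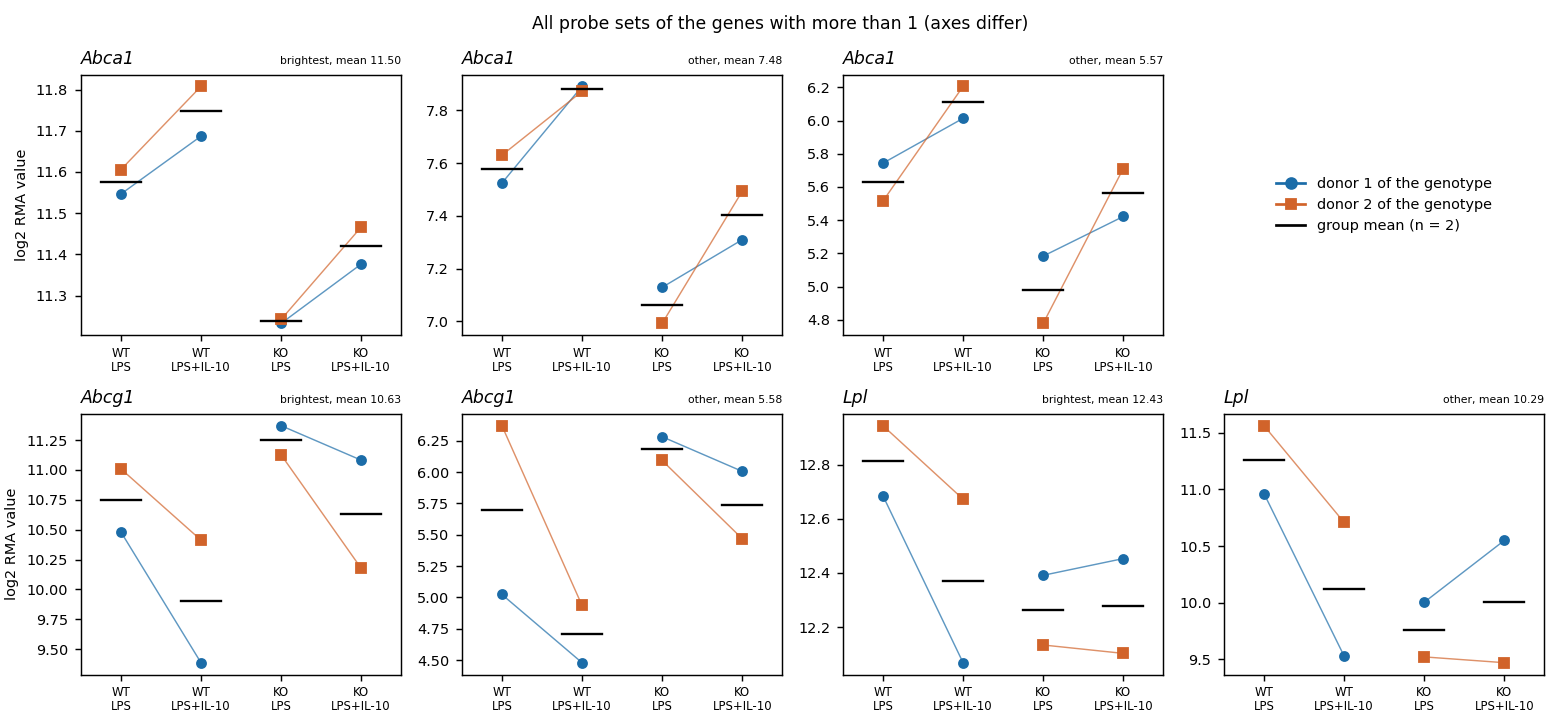
Log2 RMA values (y axis, different for each panel) of all probe sets of *Abca1*, *Abcg1* and *Lpl*, the genes with more than 1, in the 4 groups (x axis; KO is miR-155-/-), with the mean over 8 arrays in each panel's heading. The 3 *Abca1* panels show the same order of groups, and both *Lpl* panels show lower values with IL-10 in both WT donors.

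*Mylip* encodes the ubiquitin ligase that LXR induces to degrade the LDL receptor. Its values were 6.66 and 6.86 on the WT(LPS) arrays, 6.37 and 6.24 on the WT(LPS + IL-10) arrays, 7.62 and 7.11 on the miR-155-/-(LPS) arrays and 7.08 and 6.81 on the miR-155-/-(LPS + IL-10) arrays. Each donor was lower with IL-10, with differences of -0.30, -0.62, -0.54 and -0.30, and each miR-155-/- group lay above the WT group of the same treatment. The neighbours miR-155-/-(LPS + IL-10) and WT(LPS) overlapped in part, at 6.81 and 6.86.

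*Mylip* was the only member whose brightest probe set had an unadjusted limma p under 0.05 in all 4 group comparisons. Both dimmer *Abca1* probe sets also had a limma p under 0.05 in all 4. The *Mylip* differences with IL-10 were -0.46 in WT (limma, adjusted p = 0.492) and -0.42 in miR-155-/- cells (limma, adjusted p = 0.269). Those between genotypes were 0.61 under LPS (limma, adjusted p = 0.231) and 0.64 under LPS + IL-10 (limma, adjusted p = 0.401). With 1 array left out the second of these 4 ran from -0.64 to -0.20 and the third from 0.39 to 0.82. The IL-10 differences of the genotypes were 0.04 apart (95% interval -0.54 to 0.61).

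**Figure D3:**
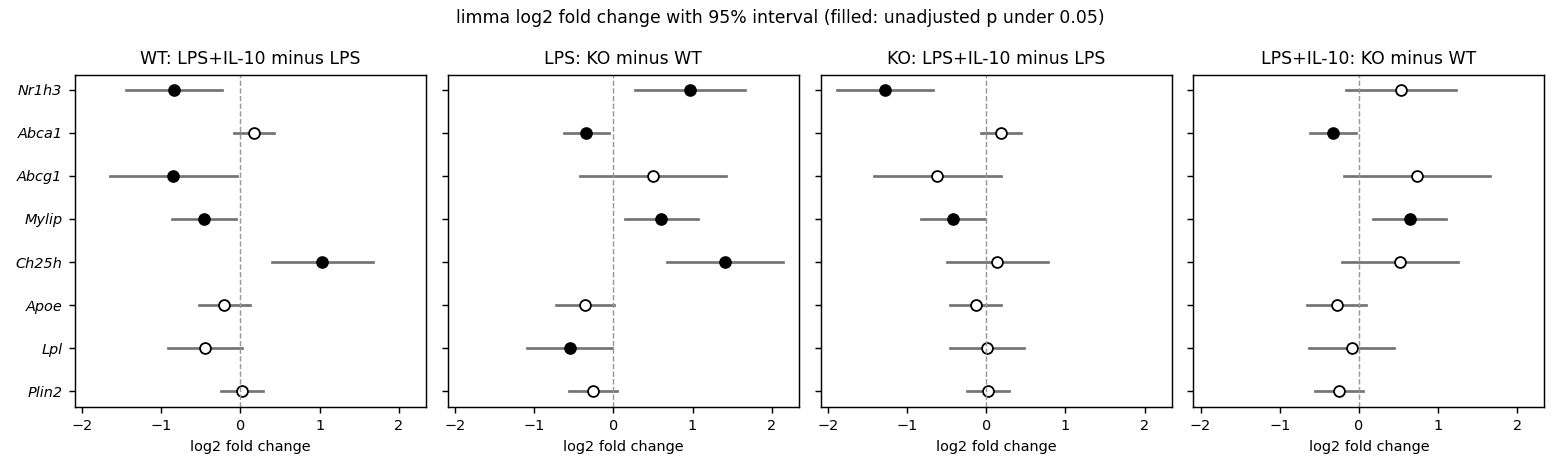
limma log2 fold change (x axis) with its 95% interval for the 8 genes (y axis) in the 4 group comparisons, where KO is miR-155-/- and filled points have an unadjusted p under 0.05. *Nr1h3*, *Abcg1* and *Mylip* lie below 0 in both IL-10 panels and above 0 in both genotype panels, *Abca1* does the reverse, and *Ch25h* lies above 0 in all 4.

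*Ch25h* encodes cholesterol 25-hydroxylase, which makes the oxysterol 25-hydroxycholesterol and is induced by interferon and LPS. Its values were 9.94 and 9.03 on the WT(LPS) arrays, 10.85 and 10.19 on the WT(LPS + IL-10) arrays, 10.89 and 10.90 on the miR-155-/-(LPS) arrays and 10.86 and 11.21 on the miR-155-/-(LPS + IL-10) arrays. Both WT(LPS) arrays were below the other 6. The miR-155-/- groups overlapped with each other, and the WT(LPS + IL-10) arrays reached up to 10.85, next to the lowest miR-155-/- array at 10.86.

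In miR-155-/-(LPS) the *Ch25h* level was 1.41 above WT(LPS) (SE 0.31, 95% interval 0.68 to 2.14), a level 2.66-fold higher (limma, adjusted p = 0.0922). Leaving out 1 array at a time gave 1.02 to 1.80 with adjusted p from limma between 0.114 and 0.373. Without both arrays of WT donor 1, which leaves 1 array in each WT group, the value was 1.87. With IL-10 the WT donors were higher by 0.91 and 1.16, a mean of 1.03 or 2.05-fold (SE 0.27, limma, adjusted p = 0.318). The miR-155-/- donors differed by -0.03 and 0.32, a mean of 0.14 (limma, adjusted p = 0.858). The difference of these differences was -0.89 (95% interval -1.79 to 0.01, limma, adjusted p = 0.481), so a different response of the genotypes was not shown. Under LPS + IL-10 the genotypes were 0.52 apart (limma, adjusted p = 0.672), at 0.28 to 0.76 with 1 array left out and 0.85 without WT donor 1.

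*Apoe* encodes the apolipoprotein that macrophages secrete as a cholesterol acceptor. Its values were 12.41 and 12.26 on the WT(LPS) arrays, 12.02 and 12.24 on the WT(LPS + IL-10) arrays, 11.98 and 11.98 on the miR-155-/-(LPS) arrays and 11.97 and 11.73 on the miR-155-/-(LPS + IL-10) arrays. All 4 WT arrays lay above all 4 miR-155-/- arrays, by little. Each donor was lower with IL-10, with differences of -0.40 and -0.01 in WT and -0.01 and -0.25 in miR-155-/- cells. The differences were -0.36 between genotypes under LPS (limma, adjusted p = 0.384), -0.28 under LPS + IL-10, -0.20 with IL-10 in WT and -0.13 with IL-10 in miR-155-/- cells.

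*Lpl* encodes lipoprotein lipase, which frees fatty acids from lipoprotein triglyceride. On the brightest probe set its values were 12.69 and 12.94 on the WT(LPS) arrays, 12.07 and 12.67 on the WT(LPS + IL-10) arrays, 12.39 and 12.13 on the miR-155-/-(LPS) arrays and 12.45 and 12.10 on the miR-155-/-(LPS + IL-10) arrays. WT(LPS) was the highest group, and the other 3 overlapped. The differences were -0.44 with IL-10 in WT (limma, adjusted p = 0.550), -0.55 in miR-155-/-(LPS) against WT(LPS) (limma, adjusted p = 0.346), 0.02 with IL-10 in miR-155-/- cells and -0.09 between genotypes under LPS + IL-10. With 1 array left out the first ran from -0.72 to -0.17, and the last, from -0.37 to 0.18, was not fixed in sign and was -0.39 without WT donor 1.

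The second *Lpl* probe set, with a mean of 10.29, gave the same pattern with larger sizes. It differed by -1.14 with IL-10 in WT and by -1.50 in miR-155-/-(LPS) against WT(LPS) (limma, adjusted p = 0.199). Its IL-10 differences were 1.39 apart between genotypes (95% interval 0.07 to 2.71, limma, adjusted p = 0.465), against 0.46 on the brightest probe set (limma, adjusted p = 0.600). Neither probe set passed the test.

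*Plin2* encodes perilipin 2, the coat protein of lipid droplets in foam cells, and it varied least. Its values were 12.80 and 12.93 on the WT(LPS) arrays, 12.80 and 12.96 on the WT(LPS + IL-10) arrays, 12.58 and 12.63 on the miR-155-/-(LPS) arrays and 12.57 and 12.68 on the miR-155-/-(LPS + IL-10) arrays. The whole range over the 8 arrays was 0.39. IL-10 went with 0.02 in WT (95% interval -0.25 to 0.28) and 0.02 in miR-155-/- cells (95% interval -0.24 to 0.29). The miR-155-/- arrays were below the WT arrays, with mean differences of -0.26 under LPS (limma, adjusted p = 0.447) and -0.26 under LPS + IL-10 (limma, adjusted p = 0.619).

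Around these genes stand 5 lists of related genes, 50 in all, of which 45 had a probe set of their own. Of the 45, 1 passed the test in 1 comparison, where *Scarb1* rose with IL-10 in miR-155-/- cells. That is 1 of 45 where 2.68% of all probe sets passed. In the other comparisons limma called 0 of the 45. At an unadjusted p under 0.05 there were 3 higher and 2 lower with IL-10 in WT (9.27% of all probe sets), 2 higher and 7 lower in miR-155-/-(LPS) against WT(LPS) (13.8%), and 10 higher and 3 lower with IL-10 in miR-155-/- cells (17.3%). There were 2 higher and 4 lower between genotypes under LPS + IL-10 (8.94%) and 3 in the interaction (10.4%). The list medians ranged from -0.32 to 0.22 over the 4 group comparisons.

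*Scarb1* encodes the scavenger receptor that binds high-density lipoprotein. Its values were 9.07 and 8.96 on the WT(LPS) arrays, 9.50 and 9.24 on the WT(LPS + IL-10) arrays, 8.60 and 8.83 on the miR-155-/-(LPS) arrays and 9.49 and 9.37 on the miR-155-/-(LPS + IL-10) arrays. The arrays with IL-10 were all above those without. It rose by 0.72 with IL-10 in miR-155-/- cells (SE 0.14, limma, adjusted p = 0.0449), and the other 2 *Scarb1* probe sets passed as well, at 0.88 (limma, adjusted p = 0.0287) and 0.75 (limma, adjusted p = 0.0488). The call held in 5 of 18 alternative fits and in 0 of the 8 that left out 1 array (limma, adjusted p = 0.0600 to 0.276), and with the donor as a fixed block the adjusted p was 0.0637. In WT cells the difference was 0.36 (limma, adjusted p = 0.494).

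The list of LXR partners and targets had 9 of 12 genes measured. *Rxra*, the obligate partner of LXR in binding DNA, stood at 8.86 and 8.84 on the WT(LPS) arrays, 8.89 and 10.03 on the WT(LPS + IL-10) arrays, 7.78 and 7.81 on the miR-155-/-(LPS) arrays and 8.39 and 8.22 on the miR-155-/-(LPS + IL-10) arrays. All 4 miR-155-/- arrays were below all 4 WT arrays, with mean differences of -1.06 under LPS (limma, adjusted p = 0.220) and -1.16 under LPS + IL-10 (limma, adjusted p = 0.378). Its other 2 probe sets, with means of 3.28 and 2.39 near the lowest signals, were at -0.34 and -0.03 under LPS and at 0.15 and -0.01 under LPS + IL-10. *Apoc2*, an activator of lipoprotein lipase, differed by 0.50 and 0.59 with IL-10 in WT and miR-155-/- cells. *Smpdl3a*, a phosphodiesterase gene that LXR induces, was at 0.51 in miR-155-/-(LPS) against WT(LPS), and the lipid transporter gene *Abca7* at -0.52 with IL-10 in miR-155-/- cells. None of these passed the test.

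Among 8 oxysterol genes, all measured, *Gpr183* encodes the receptor for the dihydroxylated oxysterol made downstream of *Ch25h*. Its values were 5.77 and 6.04 on the WT(LPS) arrays, 5.79 and 5.28 on the WT(LPS + IL-10) arrays, 3.97 and 5.09 on the miR-155-/-(LPS) arrays and 4.97 and 6.03 on the miR-155-/-(LPS + IL-10) arrays. The lowest array was from miR-155-/-(LPS), whose mean difference from WT(LPS) was -1.38 (limma, adjusted p = 0.207), and IL-10 went with 0.97 in miR-155-/- cells (limma, adjusted p = 0.241). The IL-10 differences were 1.34 apart between genotypes (limma, adjusted p = 0.455). A second *Gpr183* probe set gave -1.69, 1.31 and 1.36 for the same 3 differences. *Hsd3b7*, which acts on oxysterols on the way to bile acids, differed by 0.53 with IL-10 in WT (limma, adjusted p = 0.309).

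Of 12 measured droplet and neutral lipid genes, none passed the test. *Hilpda*, an inhibitor of the lipase that empties lipid droplets, was at 9.08 and 9.22 on the WT(LPS) arrays, 9.46 and 9.41 on the WT(LPS + IL-10) arrays, 8.24 and 8.45 on the miR-155-/-(LPS) arrays and 8.78 and 8.42 on the miR-155-/-(LPS + IL-10) arrays. The miR-155-/- arrays were again all below the WT arrays, with mean differences of -0.80 under LPS (limma, adjusted p = 0.0933) and -0.83 under LPS + IL-10 (limma, adjusted p = 0.224). *Nceh1*, a hydrolase of cholesteryl esters, was at 11.30 and 11.09 in miR-155-/-(LPS) and between 11.66 and 11.89 on the other 6 arrays. With IL-10 it differed by 0.59 in miR-155-/- cells (SE 0.12, limma, adjusted p = 0.0535), and the IL-10 differences were 0.64 apart between genotypes (limma, adjusted p = 0.340). Its other 2 probe sets differed by 0.82 and 0.90 with IL-10 in miR-155-/- cells (limma, adjusted p = 0.0652 and 0.0681). *Lipe*, hormone-sensitive lipase, differed by -0.74 with IL-10 in WT and by 0.90 between genotypes under LPS + IL-10 (limma, adjusted p = 0.514 and 0.507). A second *Lipe* probe set, with a mean of 2.50, was at 0.33 and 0.06 in these comparisons, the first opposite in sign.

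Of the 8 genes measured near lipoprotein lipase and the PPAR receptors, none passed the test. *Fabp4*, a fatty acid carrier of adipocytes and macrophages, was at 10.14 and 9.75 on the WT(LPS) arrays, 10.93 and 10.52 on the WT(LPS + IL-10) arrays, 9.39 and 8.45 on the miR-155-/-(LPS) arrays and 11.15 and 9.80 on the miR-155-/-(LPS + IL-10) arrays. It was higher with IL-10 in every donor, by 1.55 in the mean in miR-155-/- cells (SE 0.38, limma, adjusted p = 0.0926). With the donor as a fixed block limma gave an adjusted p of 0.00504. Its other 3 probe sets were at 1.66, 1.20 and 0.36 in that comparison, the last with a mean of 2.61. *Angptl4*, an inhibitor of lipoprotein lipase, was low on all arrays (3.89 to 4.74) and differed by -0.48 and -0.62 between genotypes under LPS and LPS + IL-10, while a second probe set, with a mean of 1.39, was at -0.01 and -0.03. For *Pparg*, the fatty acid receptor gene, the IL-10 differences were 0.67 apart between genotypes (limma, adjusted p = 0.455).

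The lipoprotein receptor and lysosome list had 8 of 9 genes measured. Beside *Scarb1*, the endosomal cholesterol carrier gene *Stard3* differed by 0.50 in miR-155-/-(LPS) against WT(LPS) and by -0.45 with IL-10 in miR-155-/- cells (limma, adjusted p = 0.220 and 0.160). *Npc1*, whose product passes cholesterol out of lysosomes, was at -0.46 in miR-155-/-(LPS) against WT(LPS), and the endocytic receptor gene *Lrp1* at -0.54 between genotypes under LPS + IL-10 (limma, adjusted p = 0.313 and 0.462). A second *Lrp1* probe set was also at -0.54.

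**Figure D4:**
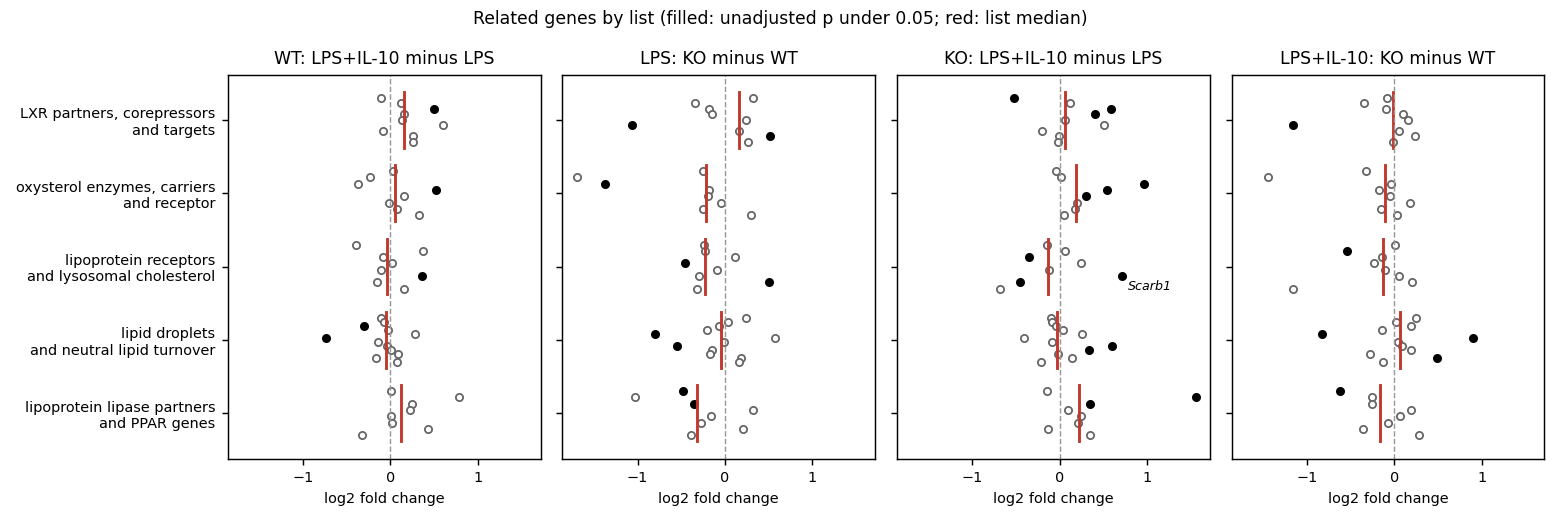
limma log2 fold change (x axis) of each measured gene of the 5 related lists (y axis) in the 4 group comparisons, where KO is miR-155-/-, filled points have an unadjusted p under 0.05 and red bars are list medians. Only *Scarb1*, named in the third panel, passed the adjusted test, and the medians lie between -0.32 and 0.22.

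For the 3 members with the largest spread, the genes of most similar pattern were sought among 8477 genes with a mean of at least 6, by Pearson's r over the 8 arrays. For *Nr1h3* (SD 0.76 over arrays) they were *H2-K1* (r = 0.988) and *H2-D1* (r = 0.986), which encode MHC class I chains, and *Rhbdd1* (r = 0.985). For *Ch25h* (SD 0.72) they were *Prelid2* (r = 0.991), *Meaf6* (r = 0.957) and *Tpi1* (r = 0.937). For *Abcg1* (SD 0.65) they were *Eif2d* (r = 0.965), *Fbxw17* (r = 0.963) and *Rasgef1b* (r = 0.959). The 8 points share donors and groups, and the highest of many correlations over so few arrays is a description only. The range of *H2-K1* was narrow, from 12.25 to 12.77.

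The cells carried the marks of macrophages: the 8 marker genes, among them *Csf1r*, *Adgre1* and *Cd68*, had a median of 12.59 to 12.82 on every array. *Itgam* was at 8.45 to 9.49. *Mertk* was at 9.06 to 9.52 on the WT arrays and 8.03 to 8.53 on the miR-155-/- arrays (miR-155-/-(LPS) against WT(LPS), limma, adjusted p = 0.106). Of 12 markers of fibroblasts and stroma, 11 were measured, and 10 of these were highest in WT donor 1. The collagen gene *Col1a1* was at 11.63 and 11.86 on its arrays and at 4.06 to 8.00 elsewhere. The summed linear signal of the list was 10646.5 and 11045.6 on its arrays and between 126.9 and 576.5 on the other 6. The exception among the markers, *Lum*, was at 2.63 to 3.21 on the WT arrays and 3.76 to 5.63 on the miR-155-/- arrays. It passed the test in miR-155-/-(LPS) against WT(LPS) (limma, adjusted p = 0.0125). No member was highest in WT donor 1. It was, though, the lowest donor for *Abcg1*, *Nr1h3* and *Mylip*, and *Cyp7b1*, an oxysterol hydroxylase gene, was at 6.02 and 5.70 on its arrays and at 2.36 to 2.67 elsewhere. The lipoprotein receptor gene *Vldlr* was likewise at 5.28 and 5.42 there and at 2.74 to 3.84 elsewhere (both genes were picked after their values were seen). Without WT donor 1, *Nr1h3* was at 0.80 and *Mylip* at 0.50 in miR-155-/-(LPS) against WT(LPS), in place of 0.97 and 0.61, and under LPS + IL-10 at 0.16 and 0.70, in place of 0.53 and 0.64. The part of other cells in the differences between genotypes was not tested beyond this, and in bulk RNA fewer cells of a type and less RNA per cell cannot be told apart.

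Of 6 adipocyte markers, which bear on *Lpl*, *Fabp4* and *Pparg*, 4 were measured. *Adipoq* was at 1.89 to 2.22 on every array, near the lowest signals, and the list's median was 2.21 to 2.56. Of 6 neutrophil markers, 5 were measured: *S100a8* was at 10.82 and 11.00 in miR-155-/-(LPS) and at 12.02 to 12.99 on the other 6 arrays (miR-155-/-(LPS) against WT(LPS), limma, adjusted p = 0.0141), while *Elane* was at 1.58 to 2.24 throughout. The members of the list differed from one another. *S100a9* was at 6.64 and 7.57 on the WT(LPS) arrays, 7.34 and 8.29 on the WT(LPS + IL-10) arrays and 3.25 to 4.20 on the 4 miR-155-/- arrays, lower with IL-10 in both miR-155-/- donors. *Camp* was at 5.78 and 5.07 on the WT(LPS) arrays and 6.30 and 5.82 on the miR-155-/-(LPS) arrays, and it was lower with IL-10 in every donor. The list's median lay between 3.25 and 5.78. Its summed linear signal, in which *S100a8* has the largest share, was 1914.6 and 2139.2 on the miR-155-/-(LPS) arrays, 4694.4 and 4384.4 on the WT(LPS) arrays and 5520.9 to 8378.6 on the 4 arrays with IL-10, and its part in the results was not tested. The dendritic cell markers (4 of 4 measured) had medians of 2.30 to 2.50, and those of B and T cells (4 of 6) of 2.20 to 3.41.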

How the data were processed

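RNA of 8 BMDM cultures was measured on Affymetrix mouse arrays, 2 in each of 4 groups. The authors deposited log2 RMA values, made in affy with quantile normalization and no filter, and the versions were not given in the sources. RMA takes all arrays together and compresses differences of dim probe sets. There were 0 array columns without a sample.

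The members and lists were chosen with earlier results of these data known. Of 45101 probe sets, 34958 had 1 symbol, 932 several and 9211 none, and 34754 of the 34958 had an Entrez ID in the RefSeq table of GRCm38.p6, with 0 symbols updated. After 64 controls and 23 sex-linked probe sets were left out, limma 3.58.1 (R 4.3.3) was fitted to 45014 on group means of all 8 arrays, with the donor as a random block (consensus correlation 0.24) and Benjamini-Hochberg adjustment. A donor was read from the genotype and replicate number that the labels give. Arrays of one donor deviated together, with a correlation of deviations of 0.754 in WT and 0.230 in miR-155-/- cells.

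Named were all members, each listed gene that passed the test in a comparison, and in each list and comparison the gene with the largest change of each sign at an unadjusted p under 0.05. The 3 genes most like each of the 3 most variable members were also named. The alternatives were no block, fixed blocks, only the arrays compared, a mean of at least 6, robust variances with an intensity trend, further quantile normalization, median centring, the mean over probe sets, each array left out, both arrays of WT donor 1 left out, and selection at an unadjusted p under 0.05 with a log2 fold change over 1. The fit was tested on simulated data. The number of arrays limits the precision. Figures were drawn in matplotlib 3.10.9 (Python 3.11.15). The miR-155 seed was not searched for in transcripts.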

Additional observations from a re-analysis of the deposited data

How the results depend on the processing

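The number of arrays limits the precision. Over the alternatives, 687 of the members' values kept their side of the threshold, and 9 came to pass it; none had passed at the outset. In miR-155-/- cells with IL-10, 1 member, *Nr1h3*, passed in place of 0 with the donor as a fixed replicate block (the pairing of each donor's arrays), with only the arrays compared, with a mean of at least 6, with an intensity trend, with median centring and with the mean over probe sets (adjusted p = 0.00852 to 0.0471). The fit without WT donor 1, also counted among the 9, gave the same values here as that with only the arrays compared. These 2 calls are therefore 1 result. In miR-155-/-(LPS) against WT(LPS), 1 member, *Ch25h*, passed with a mean of at least 6 (adjusted p = 0.0255). The fit without WT donor 1 is also counted among the 9 for *Ch25h*. It leaves 1 array in each WT group, so only its difference, 1.87, is given. Selection at an unadjusted p under 0.05 with a log2 fold change over 1 took 1 member in each of these comparisons and 1, *Ch25h*, in WT cells with IL-10. The filter on a mean of 6 leaves fewer probe sets to adjust for, and the donor correlation fitted with it was 0.369 in place of 0.24. The cause of the gained calls was not tested. With no replicate block, with the replicate number as a block and without each array in turn, 0 members were called in all 5 comparisons, and the pairing changed no other call of a member.

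Of the related genes, *Scarb1* lost its call in 13 alternatives. Calls were gained by *Nceh1* in 4, by *Rxra*, *Hilpda* and *Fabp4* in 2 each, and by *Smpdl3a*, *Apoc2*, *Abca7* and *Stard3* in 1 each. The 2 for *Rxra* left out either WT(LPS + IL-10) array and gave identical values, so they are 1 result. Over all probe sets, in the order in which the comparisons were given, the counts of 14, 659, 1206, 32 and 15 ran from 0 to 0, 53 to 478, 112 to 814, 2 to 13 and 1 to 2 without 1 array, and from 0 to 327, 77 to 1570, 492 to 3183, 2 to 295 and 1 to 105 under the other fits at an adjusted p under 0.05. Selection at an unadjusted p under 0.05 with a log2 fold change over 1, another threshold, took 310, 1135, 1129, 551 and 791. Where few arrays gave no donor correlation, that of all arrays was used.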
